A study of Mus musculus with 2 samples.

Results

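Young mouse aortic vascular smooth muscle cells (VSMCs) treated with angiotensin II (AngII) were compared with untreated young VSMCs in a single-cell RNA sequencing library in which 4 cultures had been hashed and pooled. Young cells were low-passage primary aortic VSMCs bought from commercial suppliers, from animals of the C57BL/6 strain at 12 weeks, and the AngII group received 1e-07 M AngII for 48 h. The other cultures in the pool were old cells (58 to 78 weeks) and old cells transfected with siPiezo1. In cell hashing, an antibody carrying a DNA tag marks all cells of a culture before pooling, and unique molecular identifiers (UMIs) then count the tag and the RNA molecules of each droplet. Cells were the barcodes that reached 2218 gene UMIs and 200 genes, and a cell belonged to a tag if its count of that tag alone exceeded the cutoff (36 UMIs for tag 1, 52 for tag 2, 61 for tag 3 and 41 for tag 4). This gave 3144 young cells (tag 1) and 1500 AngII-treated young cells (tag 3), together 4644 of the 13045 cells in the pool (35.6%).

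The study's schematic numbers the cultures without saying that these are hashtag numbers; the groups are named by that numbering, and the hashtag is therefore given beside each name. No replicate cultures were told apart, and each side is therefore 1 culture. The spread between cultures is unknown, no test between the groups was possible, and values are the UMIs of a gene summed over the cells of a tag, per 1000000 UMIs of that tag (CPM), with exact Poisson intervals, or ratios with exact binomial intervals of the 2 counts. All intervals are 95% intervals and cover counting error only. The study used cells of 2 suppliers, each grown in its own medium, and the supplier of each culture in the pool was not given in the sources used here. Tag 1 held 24120561 gene UMIs (median 6816.5 UMIs and 2610 genes per cell) and tag 3 held 14933669 (9453.5 UMIs and 3257.5 genes). Tag 3 was less clearly separated than tag 1. Cells of tag 1 had a median of 364 UMIs of their tag, against 10 in cells with no tag. Cells of tag 3 had a median of 113 UMIs of theirs, against 31 in cells with no tag and 30 in cells of tag 1. Mitochondrially encoded UMIs were under 1% of the total in 47.2% of the cells of tag 1 and in 72.8% of those of tag 3. UMIs of 4 Y-linked genes and none of Xist were seen in 54.1% and 55.5% of the cells. At least 2 UMIs of Xist and none of the Y-linked genes were seen in 4.42% and 5.40%. Cells from males thus outnumbered those from females under both young tags. The share of the second kind was 59.96% in tag 2 and 65.2% in tag 4, the old cultures. Whether the cells of this kind in tags 1 and 3 were young cells, old cells or mixed droplets was not tested.

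The label of smooth muscle was checked against 9 defining markers. Acta2 (smooth muscle alpha-actin) was at 378 CPM in young and 294 CPM in AngII-treated young cells, and Tagln (transgelin) at 415 and 698 CPM. In the few cells with Xist and no Y-linked UMIs they were at 543 and 592 CPM in young and at 176 and 375 CPM in treated cells, so that the direction of Tagln turned. The markers of the mature contractile state were near 0: Myh11 (smooth muscle myosin heavy chain) was at 5.27 and 1.94 CPM, and Des (desmin) at 1.04 and 0.871 CPM. Of the 9 markers, 6 reached a mean of 10 CPM over the 2 tags, and their sum was 909 CPM in tag 1 and 1089 CPM in tag 3, next to 1069 CPM in near-empty barcodes. The UMIs of Acta2 were unevenly spread, since the top 5% of the young cells carried 52.1% of them and the top 5% of the treated cells 41.4% (each cell thinned to 5000 UMIs). None of the endothelial (7), macrophage (8), epithelial (5), glial (4) and lymphocyte (5) markers reached that mean; their sums were between 0.456 and 19.8 CPM in tag 1 and between 0.536 and 22.2 CPM in tag 3. Among 7 fibroblast markers, Dcn (decorin; 448 and 669 CPM), Pdgfra (63.8 and 34.7 CPM) and Dpt (10.7 and 16.5 CPM) reached it. Both cultures were thus low in contractile genes and held fibroblast-type transcripts, as cultured VSMCs often do.

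AngII is the effector peptide of the renin-angiotensin system. In VSMCs it acts mainly through the type 1 receptor, which couples to Gq, phospholipase C and calcium release and thereby drives contraction, and over longer exposure it is known for growth, oxidative stress, inflammation and matrix remodelling of the vessel wall. Interferons act on another route: they activate a complex of STAT proteins and IRF9 that binds the interferon-stimulated response element (ISRE) in the promoters of antiviral genes, and they also raise MHC class I presentation.

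The comparison asked which genes differed between the young cells with and without AngII. Of 8419 genes with a mean of at least 10 CPM over the 2 tags, 136 (1.62%) were at least 2-fold higher in AngII-treated young cells and 314 (3.73%) at least 2-fold lower. The bulk of the transcriptome was close, with 4671 of the 8419 genes above 1, a median log2 ratio of tag 3 to tag 1 of 0.04 and a median absolute log2 ratio of 0.24. The largest differences were downward: 84 genes were at least 4-fold lower and 31 at least 8-fold lower, against 13 and 2 in the other direction. Because the fold is applied to 1 culture a side, these numbers describe the size of the differences and are no count of genes that responded.

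**Figure D1:**
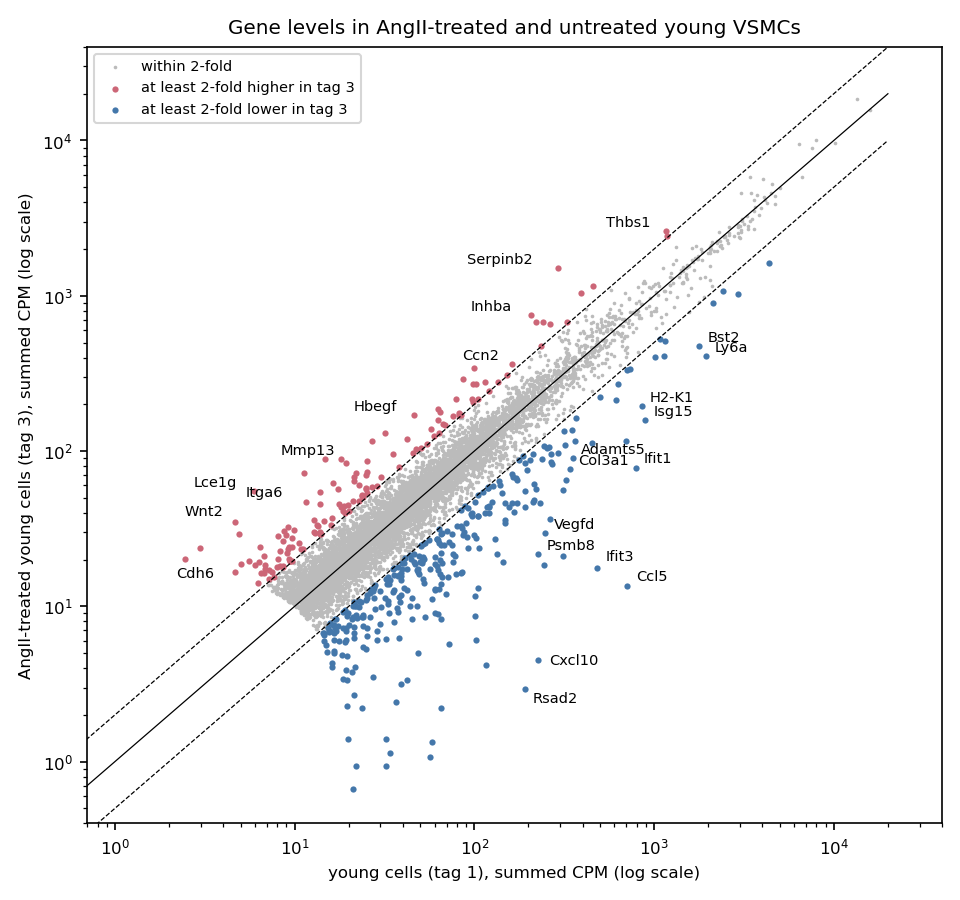
Summed CPM of 8419 genes in young cells (tag 1, x axis, log scale) and AngII-treated young cells (tag 3, y axis, log scale); each point is a gene, the solid line marks equal levels and the dashed lines 2-fold differences. The blue points farthest from the line, such as Rsad2 (191 and 2.95 CPM) and Ccl5 (709 and 13.6 CPM), are interferon-induced genes and chemokines, while the red points stay closer to it.

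The 15 genes with the lowest ratio were Rsad2, Phf11b, Ccl5, Cxcl10, Ifi206, H2-Q6, Gm4841, Cxcl9, F830016B08Rik, Ifit3b, Ifit3, Il18bp, Cmpk2, H2-Q7 and Psmb9, genes most of which are known to be induced by interferons. Rsad2 (viperin, an antiviral enzyme; ENSMUSG00000020641, chromosome 12, 26442746 to 26456452, minus strand; GRCm38, GENCODE vM21) was at 191 CPM (185 to 196) in young cells and 2.95 CPM (2.14 to 3.96) in AngII-treated young cells, which is 64.7-fold lower (48.1 to 89.2). Ccl5, a chemokine for T cells (chromosome 11, 83525778 to 83530518, minus strand), was at 709 CPM (699 to 720.1) and 13.6 CPM (11.8 to 15.6), 52.2-fold lower (45.4 to 60.2). Cxcl10, the interferon-induced chemokine that binds CXCR3, was 50.6-fold lower (39.8 to 65.4). Cxcl9, whose gene lies close to Cxcl10 and whose product has the same receptor, stood at 34.1 and 1.14 CPM. Gm4841 and F830016B08Rik, of the family of interferon-inducible GTPases, were at 21.1 and 65.5 CPM in young cells and at 0.670 and 2.21 CPM in treated cells. Near-identical copies share reads, so the values of Ifit3 and Ifit3b, of H2-Q6 and H2-Q7, of Phf11b and of Ifi206 are uncertain singly.

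The promoters of 5 antiviral genes are shown, 3 of them among the 15 lowest and Ifit1 and Isg15 from the interferon-stimulated list, chosen because the letters of the ISRE lie in each of them. RefSeq sequences of the 250 bases before the transcription start (GRCm38.p6) are printed 5′ to 3′ on the strand of the gene, in lower case, with every match in capitals to GAAA NN GAAA (N being any base), or to TTTC NN TTTC, the same motif on the other strand.
Rsad2, chr12:26456453-26456702, minus strand: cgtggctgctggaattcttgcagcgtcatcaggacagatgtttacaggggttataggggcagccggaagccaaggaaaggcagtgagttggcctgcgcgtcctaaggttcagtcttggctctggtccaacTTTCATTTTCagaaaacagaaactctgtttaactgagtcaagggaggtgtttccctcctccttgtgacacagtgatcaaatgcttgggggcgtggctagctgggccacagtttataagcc
Cxcl10, chr5:92348890-92349139, minus strand: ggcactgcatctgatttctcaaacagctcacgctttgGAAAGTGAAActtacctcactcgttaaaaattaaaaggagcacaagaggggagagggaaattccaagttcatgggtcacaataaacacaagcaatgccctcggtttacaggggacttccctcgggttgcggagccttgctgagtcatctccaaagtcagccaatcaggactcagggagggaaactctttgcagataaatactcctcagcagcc
Ifit3, chr19:34583279-34583528, plus strand: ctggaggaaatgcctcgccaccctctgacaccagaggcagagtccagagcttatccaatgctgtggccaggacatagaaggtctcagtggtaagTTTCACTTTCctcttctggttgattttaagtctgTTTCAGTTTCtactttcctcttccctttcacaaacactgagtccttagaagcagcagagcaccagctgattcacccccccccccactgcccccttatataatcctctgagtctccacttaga
Ifit1, chr19:34640639-34640888, plus strand: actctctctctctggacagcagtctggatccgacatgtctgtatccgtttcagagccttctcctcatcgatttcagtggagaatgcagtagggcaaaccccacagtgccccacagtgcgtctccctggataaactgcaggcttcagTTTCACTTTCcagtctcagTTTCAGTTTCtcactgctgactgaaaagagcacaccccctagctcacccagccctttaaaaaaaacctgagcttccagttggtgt
Isg15, chr4:156200819-156201068, minus strand: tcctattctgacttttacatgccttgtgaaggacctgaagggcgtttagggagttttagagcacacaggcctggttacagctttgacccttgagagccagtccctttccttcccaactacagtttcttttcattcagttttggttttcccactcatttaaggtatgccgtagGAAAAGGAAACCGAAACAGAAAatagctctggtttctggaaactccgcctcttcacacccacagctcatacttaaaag
Ifit3 and Ifit1 hold 2 separate matches each, and the 3 matches of Isg15 overlap in 1 run of capitals. In windows of 300 bases (250 before and 50 after the start), the motif was found in 6 of the 12 genes of the lowest 15 that could be matched to RefSeq (50%), in 18 of 31 matched members of the interferon-stimulated list (58.1%) and in 3 of 12 of the MHC class I list (25%). It was found in 1 of 13 matched genes of the highest 15 (7.69%), in 262 of the 6740 matched genes that passed the filter (3.89%) and in 1079 of 27025 genes with a window (3.99%). A match is a description of the letters and not of a bound site.

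Across the interferon-stimulated list, 35 of the 38 members that passed the filter were at least 2-fold lower in AngII-treated young cells, where 3.73% of all genes tested were, and the median log2 ratio of the list was -2.01 against 0.04 over all genes. The sensors and effectors were low together. Isg15, a ubiquitin-like modifier, was at 889.7 CPM in young and 158 CPM in treated cells, and Ifit1, which binds viral RNA, at 789 and 78.2 CPM. Bst2 (tetherin), the member with the highest level, was at 1785 and 474 CPM, 3.77-fold lower (3.67 to 3.86). Ifi47, an immunity-related GTPase, was 12.4-fold lower (9.27 to 17.0) from a lower level. The transcription factors of the pathway were lower too. Irf7 was at 265 and 36.6 CPM, Stat2 at 86.0 and 28.9 CPM, and Irf9 at 43.9 and 24.2 CPM, the last within 2-fold. Ddx58 (RIG-I, a sensor of viral RNA) was also within 2-fold, at 125 and 70.4 CPM. Ifi27 was the exception, at 120 CPM in young and 243 CPM in treated cells, 2.02-fold higher (1.93 to 2.12), where 1.62% of all genes tested were at least 2-fold higher.

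The difference was spread over the cells of each culture. After random thinning of every cell to 5000 UMIs (747 young and 136 treated cells had fewer and were left out), the interferon-stimulated list took a median of 41 UMIs per young cell (10th to 90th percentile 15 to 65) and 9 UMIs per AngII-treated young cell (4 to 16). Of 2397 young cells, 2137 (89.2%) lay above the 90th percentile of the treated cells. None of the 1364 treated cells reached the young median. With 3 cells taken as the limit for a count of 0, this allows a share of up to 0.220%. The limit covers cells of this culture with at least 5000 UMIs and says nothing of another treated culture. The chemokine Ccl5 was less evenly spread than Isg15. Ccl5 had a UMI in 52.1% of young and 3.45% of treated cells, and the top 5% of the young cells carried 36.3% of its UMIs, against 14.3% for Isg15. The pool held no cell type that should lack Ccl5, so the share that free RNA gives was not measured. Ccl5 was at 13.6 CPM in tag 3, next to 12.9 CPM in tag 2, 16.1 CPM in tag 4 and 168 CPM in near-empty barcodes. How much of the 13.6 CPM, on which the 52.2-fold value rests, came from free RNA was not tested. The share of cells low in mitochondrial UMIs differed between the tags, so the list was also read by that share. Its median was 42 UMIs in young and 9 in treated cells with under 1% mitochondrial UMIs, and 40 and 8 UMIs in cells with 1% to 20%.

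**Figure D2:**
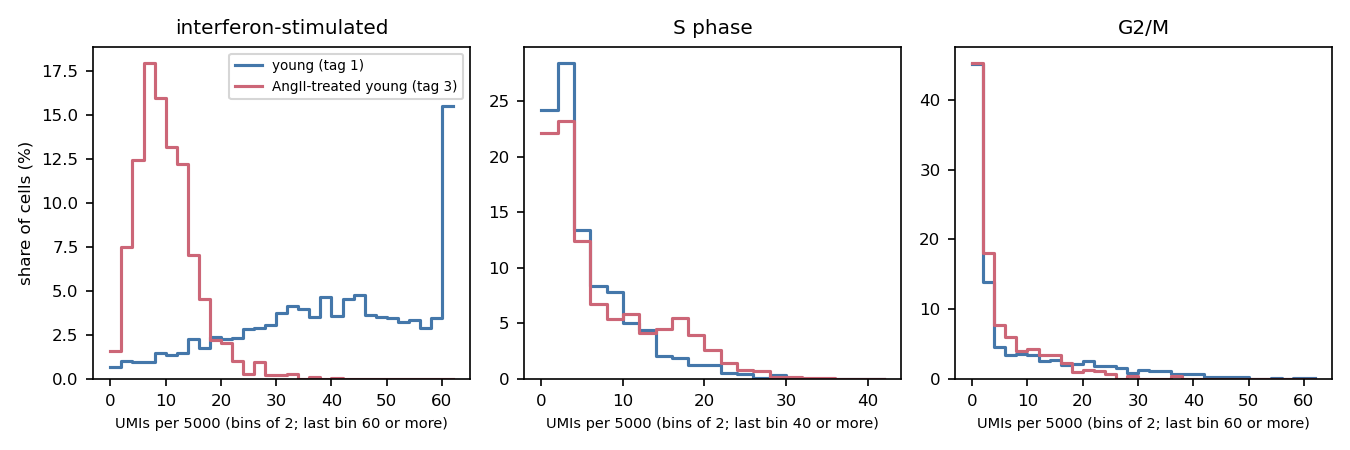
Distribution over cells of the UMIs of 3 gene lists per 5000 UMIs (x axis, bins of 2, the last bin holding all higher values), as the share of the cells of each tag (y axis, %). For the interferon-stimulated list most AngII-treated young cells (red, median 9) sit below most young cells (blue, median 41), with overlap in the tails. The S phase and G2/M curves overlap over most of their range.

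Genes of MHC class I presentation were lower as well. Of 12 members that passed the filter, 11 were at least 2-fold lower in AngII-treated young cells and none was higher, where 3.73% of all genes tested were at least 2-fold lower, with a median log2 ratio of -1.75. H2-K1 and H2-D1, the classical class I heavy chains of this strain, were at 854 and 618 CPM in young cells and at 195 and 212 CPM in treated cells. B2m, their light chain, was at 2106 CPM in young cells and was the member within 2-fold, with a ratio of 0.546 (0.537 to 0.556). The immunoproteasome subunits, which cut proteins into peptides for class I, were lower as well. Psmb8 was at 227 and 21.7 CPM (10.5-fold lower, 9.37 to 11.8), Psmb9 at 36.4 and 2.41 CPM, and Psmb10 at 99.7 and 28.7 CPM. Tap1, a chain of the peptide transporter (35.4 and 12.4 CPM), Tapbp, which encodes tapasin (91.0 and 28.0 CPM), and the class I activator Nlrc5 (19.0 and 5.89 CPM) were also past 2-fold.

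The other cultures of the pool put these levels in place. Each of the 15 genes with the lowest ratio was highest in tag 1 of all 4 tags. They were picked for a low ratio of tag 3 to tag 1, so exceeding tag 3 was set beforehand. The filter on the mean also favoured genes high in tag 1. In old cells (tag 2) the 15 genes lay between 0 and 12.9 CPM. In the cells labelled siPiezo1 (tag 4) they lay between 0.559 and 16.1 CPM, which is the range of AngII-treated young cells (0.670 to 17.7 CPM). The summed interferon-stimulated list was at 7897 CPM in tag 1, 1856 CPM in tag 3, 828 CPM in tag 2 and 829.9 CPM in tag 4, so that the treated culture lay above both old cultures and the untreated young culture stood apart. Near-empty barcodes, which hold free RNA, carried 2723 CPM of the list, and 33 of its 38 members were lower in tag 3 than in that free RNA. Such a count was not particular to this list. It was 27 of 30 for G2/M, 16 of 18 for glycolysis and 14 of 24 for non-muscle actin genes, but 2 of 18 for focal adhesion genes. Comparisons of old and of AngII-treated cells with young cells share the cells of tag 1. With 1 culture of each kind, AngII treatment and any other difference between the 2 young cultures cannot be told apart.

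**Figure D3:**
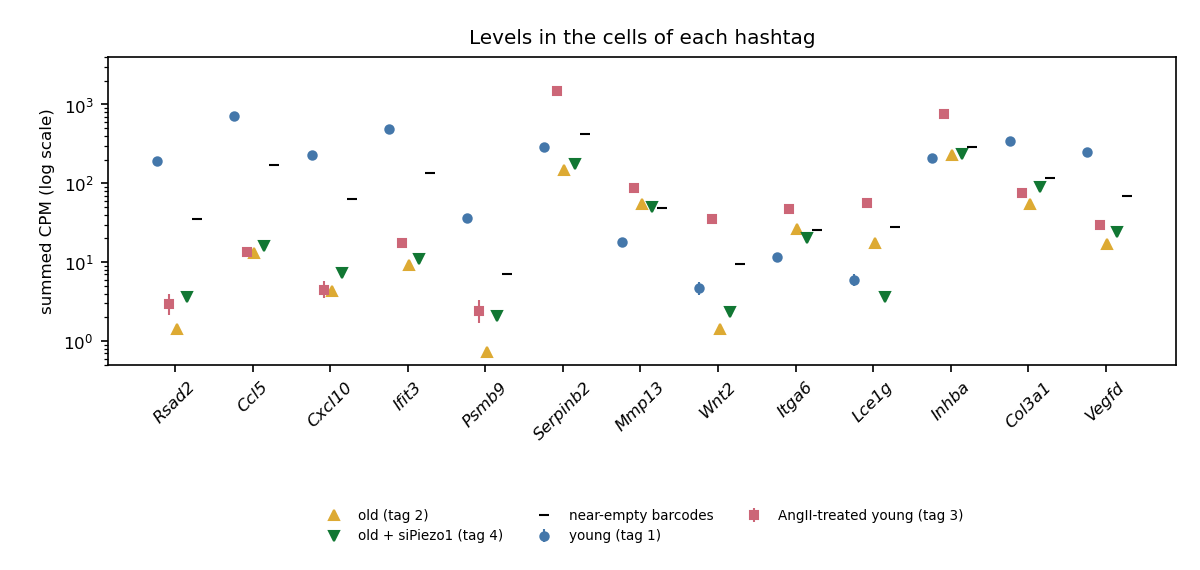
Summed CPM (y axis, log scale) of 13 genes in the cells of each hashtag and in near-empty barcodes; bars are exact Poisson 95% intervals for tags 1 and 3 and are often smaller than the symbol. Rsad2, Ccl5, Cxcl10, Ifit3 and Psmb9 are higher in young cells (tag 1) than in any other tag, whereas Serpinb2, Wnt2, Lce1g and Inhba are highest in AngII-treated young cells (tag 3).

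The receptors and first relays of AngII were next in order. Agtr1a, the main type 1 receptor gene of mouse vessels, was close to undetected, with 6 UMIs in young and 2 UMIs in treated cells. Agtr1b, its paralog, was at 3.48 and 2.95 CPM, with an interval of the ratio that included 1 (0.846, 0.574 to 1.23), and Agtr2, the type 2 receptor, at 1.87 and 0.536 CPM from 45 and 8 UMIs. None of the 5 members of the renin-angiotensin list that passed the filter differed 2-fold. Agtrap, which binds the type 1 receptor and promotes its internalization, was at 29.4 and 17.8 CPM (0.606, 0.524 to 0.699), Atp6ap2 (the prorenin receptor) at 55.0 and 51.6 CPM, and Lnpep, an aminopeptidase that binds angiotensin IV, at 109 and 121 CPM. Rnpep was at 39.4 and 44.0 CPM and Thop1, a peptidase of angiotensin I, at 11.4 and 21.6 CPM. Below the filter, Ace (converting enzyme) was at 2.11 and 1.94 CPM, Arap1 at 11.5 and 5.76 CPM, Mme (neprilysin) at 1.99 and 1.07 CPM, Anpep at 1.12 and 0.670 CPM, and Enpep at 0.456 and 0.134 CPM. No member of the Gq and RGS signalling list (19 passed) differed 2-fold either, with a median log2 ratio of 0.09. Gnaq and Gna11, the Gq family subunits, were at 124 and 76.7 CPM in young and at 152 and 104 CPM in treated cells, Itpr1, a calcium release channel of the store, at 31.4 and 47.7 CPM, and Plcb4, a phospholipase C, at 43.0 and 27.5 CPM.

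Mechanosensitive and calcium channels were modestly higher on balance: 10 of the 13 that passed lay above 1, as did 4671 of all 8419 genes tested. None of the 13 reached 2-fold, and the median log2 ratio was 0.36. It was -0.04 in cells with Xist and no Y-linked UMIs. There Cacna1c and Tmem63b were at 0.976, Stim1 at 0.916, Pkd2 at 0.904, Cacnb3 at 0.769, Orai1 at 0.720 and Pkd1 at 0.528. Above 1 were Stim2 (1.58), Piezo2 and Orai2 (1.48 each), Piezo1 (1.28), Trpm7 (1.10) and Orai3 (1.04). Only the intervals of Pkd1 (0.272 to 0.972) and Stim2 (1.03 to 2.41) excluded 1. In all cells Stim2, a sensor of store calcium, was at 27.7 and 42.7 CPM. Orai2, a channel it gates, was at 9.91 and 19.0 CPM, 1.92-fold higher (1.61 to 2.29). Tmem63b, a stretch-gated channel, was at 47.6 and 61.1 CPM, Pkd1 (polycystin 1) at 20.1 and 26.7 CPM, Pkd2 at 57.2 and 62.9 CPM, and Piezo2 at 30.0 and 42.7 CPM. Piezo1 stood at 71.6 and 108 CPM and Stim1 at 56.1 and 85.2 CPM. Cacna1c, the L-type calcium channel of smooth muscle, went the other way at 115 and 87.5 CPM (0.759, 0.711 to 0.811). Trpm7 (63.5 and 62.5 CPM), Orai1 (28.4 and 29.7 CPM) and Cacnb3 (16.7 and 17.3 CPM) differed by less than counting error, as did Orai3 (11.4 and 9.98 CPM). Of the channels with lower counts, Kcnk2 (TREK-1) was at 6.51 and 12.7 CPM and Trpc6 at 1.87 and 5.09 CPM, while Trpv4 (1.33 and 0.402 CPM) and Trpc1 (2.45 and 1.47 CPM) were lower in treated cells. The intervals of Tmem63a (9.62 and 10.4 CPM), Trpc4 (0.829 and 1.41 CPM), Trpv2 (2.16 and 1.41 CPM) and Cacna1d (1.58 and 1.34 CPM) included 1, and Trpm4 was at 2.99 and 4.42 CPM.

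Genes of the TGF-beta and activin pathway, which drives matrix production in VSMCs, were mostly higher. Of 21 members that passed, 16 were above 1 and 4 at least 2-fold higher (1.62% over all genes tested), with none 2-fold lower and a median log2 ratio of 0.30. Inhba, which encodes the subunit of activin A, was at 208 CPM (202 to 213) in young and 755 CPM (741 to 769) in AngII-treated young cells, 3.63-fold higher (3.52 to 3.76). The feedback genes were in the same direction: Smad6 was 2.33-fold higher (12.9 and 30.1 CPM), and Smad7 and Pmepa1 were just within 2-fold at 1.96 and 1.81. Id2, a target of BMP signalling, was at 50.2 and 105 CPM, and Id3, a target of the same pathway, at 450 and 554 CPM. Among the ligands and receptors, Tgfb1 was at 20.9 and 41.5 CPM, Tgfb2, below the filter and not counted, at 13.7 and 4.49 CPM, and Tgfbr3, a co-receptor, at 312 and 175 CPM. With each cell thinned, the list took a median of 15 UMIs in young and 25 UMIs in treated cells, but 17.5 and 20 UMIs in cells with Xist and no Y-linked UMIs, where its median log2 ratio was 0.01. Of 14 YAP/TEAD targets that passed, 2 were at least 2-fold higher: Ccn2 (CTGF, 163 and 365 CPM) and Ankrd1 (135 and 278 CPM). Their median log2 ratio was 0.10, and Rbms3 (462 and 310 CPM) and F3 (tissue factor, 165 and 113 CPM) lay the other way.

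Matrix genes split by kind. Of 21 collagen and elastic fibre genes, 3 were at least 2-fold lower in AngII-treated young cells (3.73% over all genes tested). Of the same genes 17 were below 1, and the median log2 ratio was -0.47. Col3a1 was at 341 CPM (334 to 349) and 76.3 CPM (72.0 to 80.9), 4.47-fold lower (4.20 to 4.76), Col1a2 at 1078 and 525 CPM, and Col12a1 at 243 and 108 CPM. Other fibrillar collagens were closer, with Col1a1 at 541 and 390 CPM, Col5a1 at 73.5 and 65.7 CPM, Col5a2 at 408 and 353 CPM and Col11a1 at 240 and 218 CPM. Col5a3, which is not in the list, lay the other way at 6.84 and 17.5 CPM, 2.55-fold higher (2.09 to 3.12). The elastic fibre genes Fbn1 (fibrillin 1) and Fbln5 (fibulin 5) were at 316 and 65.5 CPM in young and 162 and 33.2 CPM in treated cells. Lox, the collagen and elastin cross-linker, was at 1049 and 1212 CPM, and Col4a1 of the basement membrane at 319 and 328 CPM. Among other matrix genes, 4 of 21 were at least 2-fold higher (1.62% over all genes tested) and 1 at least 2-fold lower (3.73%). Their median log2 ratio was 0.36. Mmp13 and Mmp10, a collagenase and a stromelysin, were 4.87-fold (4.37 to 5.44) and 2.19-fold (2.06 to 2.33) higher, from 18.2 and 76.4 CPM in young cells. Has2, a hyaluronan synthase, was at 10.6 and 25.4 CPM, and Thbs1 (thrombospondin 1, an activator of latent TGF-beta) at 1169 and 2609 CPM. Adamts5, an aggrecanase, was 3.92-fold lower (354 and 90.3 CPM). Timp1 was at 4037 and 5663 CPM, and Sparc and Mgp, a matricellular protein and an inhibitor of calcification, were at 1925 and 1553 CPM in young and at 1322 and 1009.8 CPM in treated cells.

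**Figure D4:**
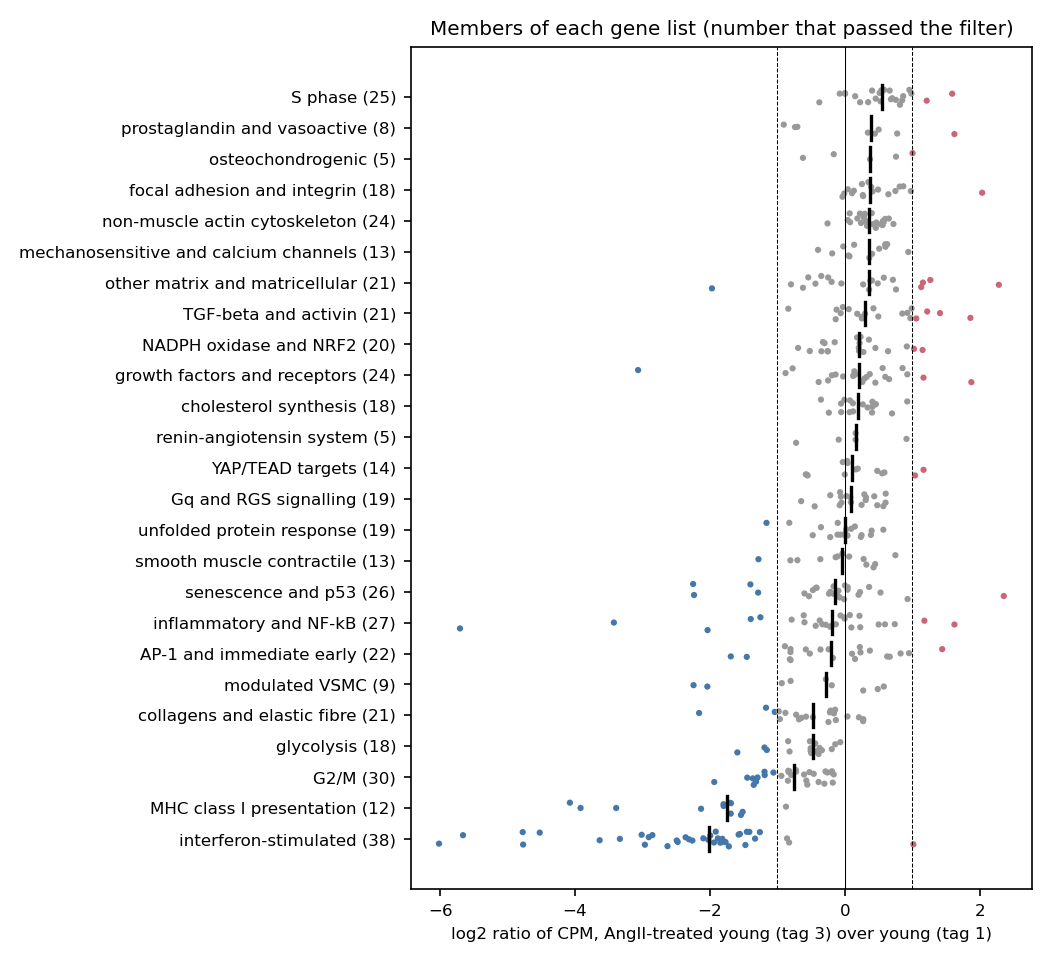
Log2 ratio of CPM in AngII-treated young (tag 3) over young cells (tag 1) for the members that passed the filter (number in brackets) of 25 gene lists, without the cell type markers and the mitochondrially encoded and ribosomal genes; each point is a gene, black bars are medians and dashed lines 2-fold differences. The interferon-stimulated (median -2.01) and MHC class I (-1.75) lists lie left of the other lists plotted, followed by G2/M (-0.76), while S phase lies farthest right of them (0.55).

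The actin cytoskeleton was higher as a group with small folds. Over all 8419 genes tested, 4671 were above 1, 1.62% were at least 2-fold higher and 3.73% at least 2-fold lower. Of 24 non-muscle actin genes, 23 were above 1 and none reached 2-fold, with a median log2 ratio of 0.36 against 0.04 over all genes. Flna, a filamin that cross-links actin, was at 170 CPM in young and 246 CPM in AngII-treated young cells. Myh9, the heavy chain of non-muscle myosin IIA, was at 335 and 500.01 CPM and Msn (moesin) at 401 and 592 CPM, while Vim (vimentin) was at 1444 and 1209 CPM. Actb and Tmsb4x, the genes of the list with the highest levels, were at 6404 and 7601 CPM in young and at 9474 and 8973 CPM in treated cells. Focal adhesion genes followed (16 of 18 above 1, median log2 ratio 0.37). Itga6, a laminin-binding integrin chain, was at 11.5 and 47.3 CPM, 4.10-fold higher (3.57 to 4.73), and was the member past 2-fold. Itga5, the fibronectin-binding chain, was at 116 and 204 CPM, Itgb1 at 729 and 956 CPM, and the adaptors Pxn (paxillin) and Zyx (zyxin) at 24.4 and 182 CPM in young and 44.5 and 285 CPM in treated cells. The contractile genes of smooth muscle showed no common direction: 6 of 13 were above 1, and the median log2 ratio was -0.04. Cnn1 (calponin) was 2.43-fold lower (16.9 and 6.96 CPM), Csrp1 was at 53.3 and 30.5 CPM, and Cald1 (caldesmon) and Tpm1 (tropomyosin), with the highest levels, were at 1627 and 1117 CPM in young and at 2030 and 1500.2 CPM in treated cells.

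Growth factors gave single large differences and no common shift (24 passed, 2 at least 2-fold higher, 1 lower, median log2 ratio 0.21). The shares over all genes tested were 1.62% higher and 3.73% lower. Hbegf, an EGF receptor ligand shed on G protein signalling, was at 46.4 CPM in young and 170 CPM in AngII-treated young cells, 3.67-fold higher (3.42 to 3.94), and Ereg (epiregulin), a ligand of the same receptor, at 230 and 436 CPM. Fgf2 was at 66.5 and 149 CPM. Vegfd, a lymphangiogenic factor, was 8.37-fold lower (7.60 to 9.24; 248 and 29.6 CPM), and the PDGF receptors Pdgfra and Pdgfrb were at 63.8 and 82.3 CPM in young and 34.7 and 48.1 CPM in treated cells. Fgf7 was at 340 and 375 CPM and Egfr at 193 and 213 CPM. The early response genes showed no common upward difference at 48 h. Of 22 AP-1 and immediate early genes, 1 was at least 2-fold higher (1.62% over all genes tested) and 2 at least 2-fold lower (3.73%). Their median log2 ratio was -0.21. Fos and Fosb were at 105 and 60.5 CPM in young and at 38.3 and 18.7 CPM in treated cells, Jun at 121 and 65.2 CPM, and Egr1 at 147 and 115 CPM. Dusp5, a phosphatase of ERK and a marker of its activity, was 2.72-fold higher (35.3 and 96.1 CPM), with Dusp4 (27.9 and 49.5 CPM) and Dusp6 (25.3 and 40.1 CPM) in the same direction. Ier3 was at 279 and 326 CPM and Klf6 at 189 and 203 CPM.

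Inflammatory genes went both ways, and 18 of 27 were below 1 (median log2 ratio -0.19). At least 2-fold higher were 2 (1.62% over all genes tested), and 5 were at least 2-fold lower (3.73%). Besides Ccl5, those lower were Nos2 (inducible nitric oxide synthase; 23.7 and 2.21 CPM, 10.7-fold, 7.55 to 15.7), Hp (haptoglobin; 37.6 and 9.17 CPM), Ccl20 (51.2 and 19.5 CPM) and Ccl7 (2129 and 894 CPM). Ccl2, the monocyte chemokine and the gene of the list with the highest level, was at 3614 and 2679 CPM, and Il6 was at 131 and 125 CPM, with a ratio whose interval included 1 (0.956, 0.902 to 1.01). Lif, a cytokine of the IL-6 family, was 2.27-fold higher (21.0 and 47.6 CPM), and Ptgs2 (cyclooxygenase 2) 3.08-fold higher (220 and 680 CPM). Ptgs2 was the 1 member past 2-fold of 8 prostaglandin and vasoactive genes (median log2 ratio 0.39), and was at 797 CPM in tag 2 and 690 CPM in tag 4. Enzymes downstream of it were in the same direction: Ptgis (prostacyclin synthase) was at 95.4 and 163 CPM and Ptges (prostaglandin E synthase) at 89.8 and 127 CPM. In cells with Xist and no Y-linked UMIs Ptges turned (235 and 176 CPM, 0.746, 0.617 to 0.901), and the median of the list was -0.09. Adm (adrenomedullin) was at 251 and 154 CPM and Prkg1, the cGMP-dependent kinase, at 243 and 130 CPM. Of 20 genes of NADPH oxidases and of the NRF2 response that passed, 2 were at least 2-fold higher, Nqo1 (18.5 and 41.1 CPM) and Hmox1 (152 and 310.0 CPM), where 1.62% of all genes tested were, and none was 2-fold lower (median log2 ratio 0.21). Nox4, the oxidase subunit expressed in these cells, was at 34.9 and 39.6 CPM, Nox1 at 1.78 and 1.54 CPM, Txnrd1 at 207 and 392 CPM, and the ferritin chains Fth1 and Ftl1 were at 13543 and 3595 CPM in young and 18544 and 4148 CPM in treated cells.

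The cell cycle genes split between phases. S phase genes were mostly higher in AngII-treated young cells (23 of 25 above 1, 2 at least 2-fold, median log2 ratio 0.55). All 30 G2/M genes were below 1, with 9 at least 2-fold lower and a median log2 ratio of -0.76. Of all 8419 genes tested, 4671 were above 1, 1.62% at least 2-fold higher and 3.73% at least 2-fold lower. Ccne2 and Ccne1, the E cyclins that open S phase, were 3.01-fold (21.3 and 64.2 CPM) and 2.32-fold (24.9 and 57.8 CPM) higher, and Pclaf and Dut, with the highest levels, were at 163 and 139 CPM in young and 191 and 131 CPM in treated cells. Ccnb2, a mitotic cyclin, was 3.83-fold lower (37.1 and 9.71 CPM). Cenpa (67.5 and 24.8 CPM), Hmmr (75.3 and 29.3 CPM), Cenpf (84.2 and 33.0 CPM), Plk1 (21.8 and 8.77 CPM) and Nusap1 (42.4 and 17.3 CPM), which act in mitosis, were also past 2-fold, while Top2a (140 and 123 CPM) was not, and Ube2c (162 and 71.05 CPM) was. Per cell the medians were close, at 3 and 4 UMIs of 5000 for S phase and 2 and 2 UMIs for G2/M, and the 90th percentiles were 13 and 18 for S phase and 25 and 14 for G2/M. Cells with at most 2 UMIs of either list were 36.1% of young and 31.3% of treated cells. Of 26 senescence and p53 genes, 4 were at least 2-fold lower (3.73% over all genes tested) and 1, Serpinb2, at least 2-fold higher (1.62%). Their median log2 ratio was -0.14. Cdkn1a (p21) was at 726 and 626 CPM and Cdkn2a at 271 and 201 CPM, the inhibitors Cdkn1c, Cdkn1b and Cdkn2b were at 24.9, 22.3 and 79.6 CPM in young and 5.29, 8.44 and 32.7 CPM in treated cells, and Gdf15 was at 60.5 and 12.7 CPM. Igfbp7, with the highest level of the list, was at 1282 and 847 CPM. The summed list was at 6279 CPM in young and 7456 CPM in treated cells, with medians of 31 and 37 UMIs per thinned cell. Serpinb2 alone, at 293 and 1499.6 CPM, rose by more than the sum did. Its own medians were 1 and 6 UMIs per thinned cell, so the higher sum does not describe the list as a whole.

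Glycolysis and hypoxia genes were lower as a group (18 of 18 below 1, 3 at least 2-fold against 3.73% of all genes tested, median log2 ratio -0.48). Bnip3, a mitophagy receptor, was at 121 and 40.04 CPM, Pdk1 at 15.8 and 6.90 CPM and Slc16a3, a lactate exporter, at 35.7 and 16.004 CPM, next to Ldha at 761 and 581 CPM and Gapdh at 1605 and 1129.6 CPM. Cholesterol synthesis genes (18 passed, none past 2-fold, median log2 ratio 0.19) differed little, with Idi1 at 74.4 and 101 CPM, Cyp51 at 86.5 and 114 CPM and Fdps at 111 and 107 CPM. The unfolded protein response list was level at its median (19 passed, median log2 ratio 0.00), with Hsp90b1 at 1056 and 1008 CPM and Calr at 931 and 864 CPM. Nupr1, a stress-induced regulator, was at 367 and 164 CPM. Ddit3, a member left out of the list, was past 2-fold lower in the entry given in the closing section. In the list of modulated VSMC genes, 2 of 9 were at least 2-fold lower, where 3.73% of all genes tested were, and 3 of 9 were above 1. Their median log2 ratio was -0.28, but the summed list was level, at 7757 CPM in young and 7824 CPM in treated cells. Ly6a (Sca-1, a marker of modulated VSMCs that interferon also induces) was at 1944 and 411 CPM, 4.73-fold lower (4.61 to 4.86), and Ly6c1 at 147 and 35.8 CPM. Mitochondrially encoded genes were lower as well (12 passed, 1 at least 2-fold lower, median log2 ratio -0.84), but not in cells with 1% to 20% mitochondrial UMIs (-0.01), a subset chosen by these UMIs, and cytosolic ribosomal protein genes were level (82 passed, -0.04). Of 5 osteochondrogenic genes that passed, Ank, a pyrophosphate transporter, was 2.01-fold higher (7.71 and 15.5 CPM), where 1.62% of all genes tested were at least 2-fold higher. Spp1 (osteopontin) was at 3418 and 5782 CPM, a direction that turned in cells with Xist and no Y-linked UMIs (7452 and 6302 CPM).

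The 15 genes with the highest ratio were Lce1g, Cdh6, Mt4, Wnt2, S100a8, 1700012B09Rik, Igsf11, Serpinb2, Mmp13, Gm45716, Bcl2l15, Wincr1, Itga6, Nrcam and Zfp804a. Of these, 13 were highest in tag 3 of all 4 tags. The pick itself set the 15 above tag 1 and favoured genes low in tag 1. Tag 1 was exceeded by tag 2 in 11 of the 15 and by tag 4 in 10 of them. Most of the 15 were of low level in young cells. Lce1g, a late cornified envelope gene of the epidermis (chromosome 3, 92750148 to 92752338, minus strand), was at 5.97 and 55.5 CPM, 9.30-fold higher (7.78 to 11.2). Cdh6 (a cadherin) was at 2.45 and 20.0 CPM, Mt4 (a metallothionein) at 2.99 and 23.6 CPM, and Wnt2 (a Wnt ligand; chromosome 6, 17988940 to 18030585, minus strand) at 4.64 CPM (3.82 to 5.59) and 34.8 CPM (31.9 to 37.9). Serpinb2 (PAI-2; chromosome 1, 107511423 to 107535478, plus strand) was by far the most abundant of the 15, at 293 CPM (286 to 299.8) in young and 1499.6 CPM (1480.0 to 1519) in AngII-treated young cells, 5.12-fold higher (4.99 to 5.26). Per 5000 UMIs it had a median of 1 UMI in young and 6 UMIs in treated cells, with 10th to 90th percentiles of 0 to 4 and 1 to 17. It was at 146 CPM in old cells (tag 2) and 177 CPM in tag 4, so the treated culture stood above the 3 others.

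The comparison was repeated in subsets of cells found under both tags. In the subset with Y-linked UMIs and without Xist (1700 young and 833 treated cells), 186 genes were at least 2-fold higher and 366 lower. In the subset with Xist and without Y-linked UMIs (139 and 81 cells), 173 were higher and 208 lower. Cells of this kind made up 59.96% of tag 2 and 65.2% of tag 4, the old cultures. Their origin under the young tags was not tested. Values of this subset are therefore those of cells carrying the tag, and not surely those of the young cultures. Of the 136 genes higher in all cells, 120 lay above 1 in both subsets and 29 reached 2-fold in both, and of the 314 lower, 294 lay below 1 in both and 131 reached 2-fold in both. Both subsets are part of the cells in which these genes were picked. Staying on the same side was thus partly set beforehand, and the counts are a description and no independent support. The interferon-stimulated genes were among those that stayed lower: in the Xist subset Ccl5 was at 308 and 8.31 CPM and Ifit1 at 337 and 42.6 CPM. The size of the difference varied there. Rsad2 was at a ratio of 0.0126 (0.000317 to 0.0718), from 117 UMIs in young and 1 UMI in treated cells. Cxcl10 was at 0.191 (0.0921 to 0.360), against 0.0198 in all cells. Psmb9 was at 0.341, with an interval that included 1 (0.0624 to 1.24). The level of the list in young cells differed between the subsets, with a median of 44 UMIs per 5000 in cells with Y-linked UMIs and 13 UMIs in cells with Xist, against 9 and 5 UMIs in treated cells. Many other genes, though not all, came closer to 1 or crossed it in the Xist subset. Serpinb2 stayed at 5.12 (4.38 to 6.01), and Lce1g was at 14.8 (3.59 to 131). Thbs1 was at 1.30, Ccn2 at 1.44, Ankrd1 at 1.30, Ptgs2 at 1.31, Hbegf at 1.56, Dusp5 at 1.37 and Ccne2 at 1.19. Mmp10 was at 0.671 (0.560 to 0.802) and S100a8 at 0.925 (0.623 to 1.36). Of 485 genes listed or leading, 126 lay on the other side of 1 in this subset, 20 of them with an interval that excluded 1, Tagln, Tpm1, Spp1, Fst, Ptges, Mki67 and Top2a among them. The median log2 ratio of 11 of 29 lists changed sign, and each of the 16 with a positive median was lower there than in all cells. The G2/M list had a median log2 ratio of 0.32 there, and -0.12 among cells with few S phase and G2/M UMIs, a subset chosen by these very UMIs, where Ccne1 and Ccne2 were both at 1.06. Leaving out the cells that Scrublet called doublets (23.3% and 22.3% of the tags) raised most of the upward ratios, to 4.48 for Inhba, 5.07 for Ptgs2 and 7.63 for Mmp13.

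**Figure D5:**
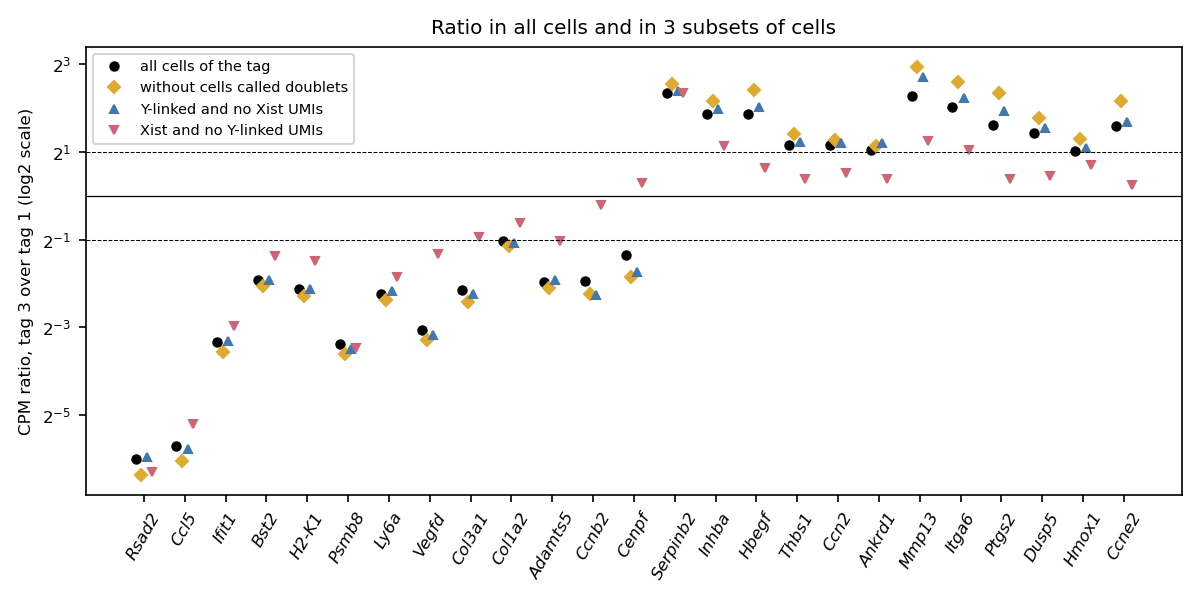
Ratio of CPM, tag 3 (AngII-treated young) over tag 1 (young), for 25 genes (y axis, log2 scale; dashed lines at 2-fold), in all cells of the tags and in 3 subsets. The interferon and MHC genes at the left stay far below 1 in each subset, while for cells with Xist and no Y-linked UMIs most other genes lie nearer to 1 and Cenpf passes it.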

How the data were processed

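The authors deposited raw UMI counts from Cell Ranger (version 4 per the file headers) for 32285 genes and 4 hashtags over 2472397 barcodes, unfiltered. The build they aligned to was not given in the sources used here. The cell cutoff of 2218 UMIs is the 99th percentile of the totals of the 10000 deepest barcodes divided by 10. Of the cells, 5307 carried no tag and 1068 more than 1, and these were left out. The hashtag cutoffs were set with earlier results of these data known. Counts were summed per tag and expressed as CPM; ratios have exact Clopper-Pearson intervals. Barcodes with 1 to 100 UMIs gave the free RNA profile. Doublets were called with Scrublet (scanpy 1.11.5, expected rate 0.1), which called 23.4% of the cells, far above that rate; they were kept except where stated. Thinning drew 5000 UMIs per cell. The calculation of the ratio was checked on simulated Poisson counts with planted folds. Those counts hold no spread between cells or cultures, so the check covers the arithmetic only.

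Genes named are the 15 highest and 15 lowest ratios among genes with a mean of at least 10 CPM and, of each list, up to 6 members past 2-fold and the 2 with the highest CPM, with every angiotensin and channel gene of at least 10 UMIs. Further members, the subsets by mitochondrial share, the promoter motif and the genes of the closing section were chosen after values were seen, and all members and lists were chosen with earlier results of these data known. Mx1 and Mx2 were not analysed here, and some other genes are not reported here; Aldoa and Ddit3 have 2 identifiers each and were left out of the lists. Symbols were taken from the deposited gene table and positions from GENCODE vM21 by identifier.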

Additional observations from a re-analysis of the deposited data

How the results depend on the processing

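The main counts were 136 genes at least 2-fold higher and 314 lower. The higher count moved to 269 without cells called doublets (403 lower, so the lower share of the genes past 2-fold went from 69.8% to 59.97%), and the lower count to 208 in cells with Xist and no Y-linked UMIs (173 higher, a lower share of 54.6%). The limits on level and fold moved both: 50 and 117 genes at a mean of at least 50 CPM, 301 and 601 at 2 CPM, 1271 and 1938 with no such limit, and 599 and 664 at a fold of 1.5. A tag at least 3 times the next tag, doubled tag cutoffs (which left 772 cells in tag 3), mitochondrial limits, thinning, cells with few S phase and G2/M UMIs, cells with Y-linked UMIs and centring on the median gene left both within 1.5 times. With doubled tag cutoffs, however, all leading genes lay nearer to 1. The ratio of Rsad2 went from 0.0154 to 0.0611, outside its interval, and that of Lce1g from 9.30 to 5.85. Doubled cutoffs also admitted cells that had been left out for exceeding more than 1 cutoff, and tag 1 then held 3146 cells. The setting is therefore not simply a stricter one. With a tag at least 3 times the next tag, Rsad2 was at 0.0166 and Lce1g at 9.90. Of 120 listed or leading genes past 2-fold, 109 kept their side of 1 under all 9 alternatives and 65 stayed past 2-fold, as did 26 of the 30 leading genes. The alternatives draw on largely the same cells, so these counts show dependence on the processing only.

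Among genes past 2-fold, ratios that crossed 1 in cells with Xist were 0.925 for S100a8, 0.814 for Zfp804a, 0.671 for Mmp10, 0.868 for Lif, 1.38 for Ccnb1, 1.18 for Ube2c, 1.14 for Cenpa, 1.23 for Cenpf, 1.28 for Cdc20 and 1.06 for Pdk1. Among cells with few S phase and G2/M UMIs, Ccnb1 was at 1.17, Cdc20 at 1.79 and Nusap1 at 1.59; the cause was not tested, beyond the choice of those cells by the list's own UMIs. Over the alternatives the interferon-stimulated median log2 ratio ranged from -2.54 to -1.63, MHC class I from -1.94 to -1.49, G2/M from -0.95 to 0.32, TGF-beta and activin from 0.01 to 0.53 and channels from -0.04 to 0.42. With 1 culture a side, depth limits counting error only, and no setting gives the spread between cultures.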

Other observations

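Abundant genes outside the gene lists also differed. Of 19 genes with a mean of at least 500 CPM that were past 2-fold, 5 were higher and 14 lower in AngII-treated young cells (tag 3), and 10 were in none of the lists. Ifitm3, an interferon-induced protein that blocks viral entry, was at 4343 CPM in young cells (tag 1) and 1617 CPM in treated cells, and Ifitm2 at 1133 and 410.3 CPM. Anxa1 (annexin A1, an anti-inflammatory phospholipid-binding protein) was at 2405 and 1066 CPM, Plac8 at 2915 and 1032 CPM and Selenow, a selenoprotein, at 1154 and 512 CPM. On the other side, Akap12, a scaffold of protein kinase A, was at 459 and 1163 CPM and Dstn (destrin, which severs actin filaments) at 1174 and 2438 CPM. Akap12 was at 245 CPM in tag 2 and 188 CPM in tag 4, below both young cultures, whereas Dstn was at 1830.1 and 1251 CPM there.

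Further genes past 2-fold lay in none of the lists. Tll1, a protease that cleaves the BMP inhibitor chordin, was at 242 and 677 CPM, 2.80-fold higher (2.71 to 2.89), and Smurf2, a ubiquitin ligase of the TGF-beta pathway, at 98.01 and 271 CPM. Sfrp1, a Wnt inhibitor, was at 323 and 64.7 CPM (0.200, 0.187 to 0.214), and Ccn5, a matricellular protein known to restrain VSMC growth, at 72.0 and 5.76 CPM. Ncam1, an adhesion molecule, was at 264 and 657 CPM. Crct1 and Ivl, known from the epidermis, were at 86.2 and 9.12 CPM in young and at 289.9 and 22.0 CPM in treated cells, and Crct1 was at 329 CPM in tag 2. One of the 2 entries of Ddit3 (CHOP, a stress-induced transcription factor; ENSMUSG00000025408) was at 190.3 and 43.3 CPM (0.228, 0.209 to 0.247). These genes were picked after their values were seen.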
